A study of Bos taurus with 6 samples.

Results

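Oxytocin, somatostatin and 5 related genes of luteal peptide signalling were followed in cultured bovine granulosa cells (GC). The members were chosen by gene symbol and are OXT, AVP, OXTR, PAM, SST, INSL3 and PENK. The array reports genes as transcript clusters, and each of the 7 symbols had 1, so that the members account for 7 of 26773 transcript clusters. GC are the steroid-producing cells that line the inside of the ovarian follicle and turn into luteal cells after ovulation. RNA from 6 cultures was hybridized to Bovine Gene 1.0 ST arrays with 1 array per culture. GC aspirated from small to medium follicles of abattoir ovaries, pooled over many cows of undefined cycle stage, were plated at 100000 cells per well for the 3 normal density cultures and at 1000000 cells per well for the 3 high density cultures. Both groups shared collagen-coated plates, 9 days of culture and a serum-free medium with insulin, FSH (20 ng/ml), IGF-1 (50 ng/ml) and androstenedione (2 μM). A control without these hormones was not analysed here.

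Oxytocin is a short peptide hormone that is made in the brain and, in ruminants, in large amounts by GC after the LH surge and by the young corpus luteum. It is cut from a precursor, amidated at its end by PAM and stored in granules, and luteal oxytocin takes part with uterine prostaglandin in the regression of the corpus luteum. Somatostatin, insulin-like peptide 3 and the enkephalins are likewise cut from precursors and act on receptors that couple to G proteins. Insulin-like peptide 3 is in the ovary mainly known from theca cells.

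Values are log2 signals as the authors normalized them. A log2 fold change is the mean at high density minus the mean at normal density. A transcript cluster is termed called when its fold change (FC) exceeds 1.5, which is 0.585 on the log2 scale, and its p-value and adjusted p from limma are below 0.05. The background level of 4.62 is the signal that 95% of the values of 82 reporter control rows did not exceed, and in 51.2% of all transcript clusters neither group mean exceeded it. Of the 7 members, 2 were called higher and 1 was called lower at high density, against 3.97% and 3.51% of all transcript clusters. The groups did not overlap for 5 members, against 37.3% of all transcript clusters. The median log2 fold change was 0.23 for the members and 0.02 for all transcript clusters. INSL3 and OXT were higher and SST was lower, PAM and PENK had values that missed the criteria, and AVP and OXTR stayed at or below the background level. In RNA from whole cultures, fewer cells of a type and less RNA per cell cannot be told apart.

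Of 12 marker genes of the labelled cell type GC, 10 had means above the background level in both groups. At high density 1 of the 12 was called higher and 6 were called lower, among them CYP19A1, the enzyme of estradiol synthesis, at 6.51 ± 0.21 and 3.71 ± 0.23 (SD, n = 3 cultures), and the FSH receptor FSHR at 6.93 ± 0.21 and 4.73 ± 0.22. CYP19A1 was below the background level at high density, and the marker called higher, the estradiol-forming enzyme HSD17B1, was below it at normal density with 4.19 ± 0.12 and 5.45 ± 0.22. The paper states that its aspiration can yield almost pure GC, free of theca cells. Markers of other cells were looked up to describe the cultures. All 8 leukocyte markers, all 6 red blood cell markers and 7 of 8 endothelial markers were at or below the background level in both groups. So were 4 of 6 markers of surface epithelium, and of 8 luteal markers the prostaglandin receptor PTGFR was called higher and LHCGR, the LH receptor, lower, although LHCGR was below the background level in every culture. An adjusted p below 0.05 was found for 6 of the 8. Among them STAR and HSD3B1 had log2 fold changes of -0.49 and -0.28, and CYP11A1 and FDX1 of 0.26 and 0.34, all short of the FC threshold. Of 7 theca markers, 4 were at or below the background level, and the log2 of the summed signal of the 7 was 7.65 to 7.74 at normal and 7.87 to 7.98 at high density. The defining theca enzyme CYP17A1 was below it at 2.93 ± 0.08 and 2.92 ± 0.11, while BMP4 was called higher, from below it in every normal density culture to a mean 1.51-fold over it at high density. Of 8 markers of smooth muscle cells and fibroblasts, 6 had means above the background level in both groups, 3 were called higher and 1 lower. The marker called lower, MYH11, had both means below that level, at 4.59 ± 0.16 and 3.93 ± 0.07. The log2 summed signal of the 8 was 11.10 to 11.18 at normal and 11.45 to 11.52 at high density. The part of these cells in the results was not tested.

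OXT encodes the precursor of oxytocin and of its carrier neurophysin. Its log2 signals at normal density were 10.50, 10.45 and 10.33, and at high density they were 11.12, 10.98 and 11.08. All high density cultures lay above all normal density cultures, with a gap of 0.47 between the groups. The means were 10.43 ± 0.09 and 11.06 ± 0.07 (SD, n = 3). OXT rose by a log2 fold change of 0.63 (SE 0.08, 95% interval 0.45 to 0.81, adjusted p = 0.00158), which is an FC of 1.55. This FC is close to the threshold, and without replicate 3 of the normal density group the log2 fold change was 0.58 and OXT was not called. In size the change exceeded that of 93.0% of all transcript clusters.

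AVP encodes vasopressin, the sister peptide of oxytocin, and the RefSeq annotation of the assembly ARS-UCD2.0 lists AVP and OXT as direct neighbours. The log2 signals of AVP were 4.32, 4.23 and 4.41 at normal density and 4.55, 4.28 and 4.46 at high density. No culture exceeded the background level, and the groups overlapped. The log2 fold change was 0.11 (SE 0.09, 95% interval -0.11 to 0.33, adjusted p = 0.468). UBOX5 and MRPS26, which flank the pair in that annotation, were not called either, with log2 fold changes of 0.05 and -0.11.

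OXTR encodes the oxytocin receptor. Its log2 signals were 3.93, 3.80 and 3.72 at normal density and 4.06, 3.65 and 3.91 at high density. All cultures were below the background level, and the groups overlapped. The log2 fold change was 0.06 (SE 0.12, 95% interval -0.21 to 0.33, adjusted p = 0.783), and its sign turned under other settings. The vasopressin receptor genes AVPR1A, AVPR1B and AVPR2 were also below the background level. AVPR1A, the vascular vasopressin receptor, had mean log2 signals of 2.12 and 2.25. LNPEP, the oxytocinase that degrades oxytocin, was well above background in both groups at 7.73 ± 0.07 and 7.61 ± 0.08, with an adjusted p of 0.342. Without the members, 0 of the 6 transcript clusters of the oxytocin and vasopressin list were called, and 5 of them were at or below the background level in both groups. Of these 6, 0 had an unadjusted p-value below 0.05, and the methods' t-test called 0. This name stands for the analysis of variance that the study used, which for a pair of groups is equivalent.

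**Figure D1:**
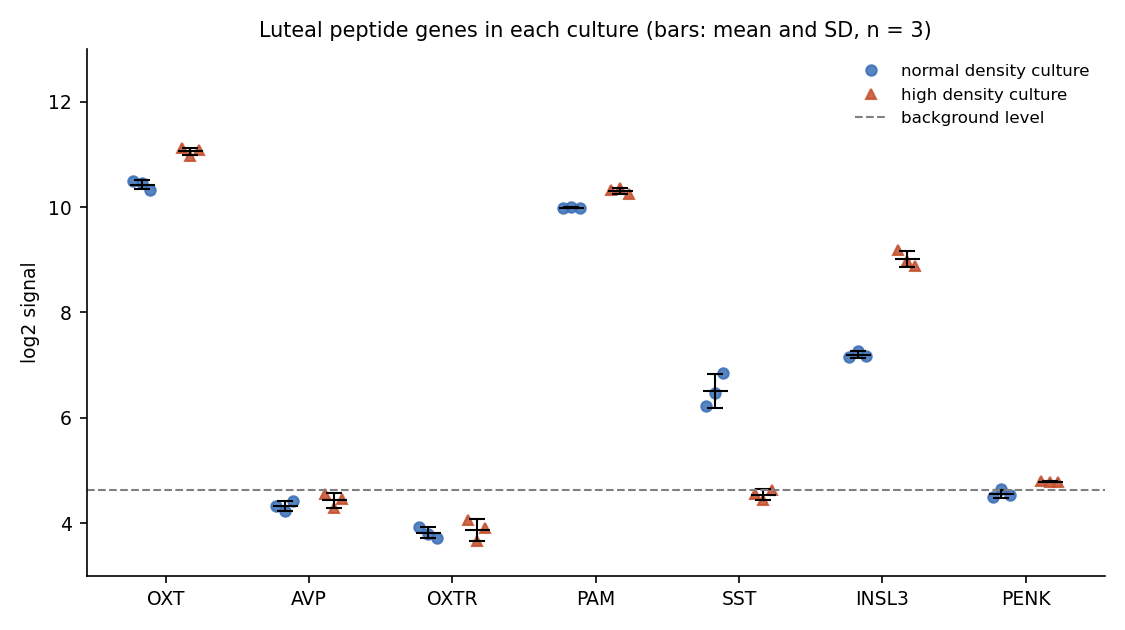
Log2 signals (vertical axis) of the 7 members in the 3 normal density cultures (blue circles) and the 3 high density cultures (red-orange triangles). Bars give the mean and SD of each group, and the dashed line is the background level of 4.62. INSL3 and OXT were higher and SST was lower at high density, while AVP and OXTR lay below the dashed line in every culture.

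PAM encodes the enzyme that puts the terminal amide on oxytocin and many other peptides. The normal density cultures had log2 signals of 9.99, 10.003 and 9.98, and the high density cultures had 10.32, 10.36 and 10.25. The groups did not overlap, with a gap of 0.25. The means were 9.99 ± 0.01 and 10.31 ± 0.06 (SD, n = 3), and only 1.55% of all transcript clusters had a smaller SD at normal density. The log2 fold change was 0.32 (SE 0.07, 95% interval 0.16 to 0.47). The adjusted p was 0.0151. An adjusted p below 0.05, whatever the fold change, was found for 4 members and for 19.1% of all transcript clusters. The FC of 1.25 is below the threshold, so PAM was not called.

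PAM works on precursors that other enzymes have already cut, and 22 of 24 further genes of prohormone processing and secretory granules were found by symbol. Of these, 3 were called higher, 1 was called lower and 7 were at or below the background level in both groups, with a median log2 fold change of 0.07. PCSK1, the convertase that cuts prohormones in granules, had log2 signals of 4.65, 4.67 and 4.596 at normal density and 6.45, 6.40 and 6.33 at high density. The normal density cultures thus lay at the background level and the high density cultures clearly above it, and PCSK1 rose by 1.76 (SE 0.07, adjusted p = 1.58e-05). The sister convertase PCSK2 was below the background level in both groups, with means of 3.03 and 3.10. FURIN, the general convertase of the secretory pathway, had means of 8.47 ± 0.09 and 8.31 ± 0.06 (adjusted p = 0.199).

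SCG2, a granule protein of the secretogranin family, rose from 7.57 ± 0.11 to 8.39 ± 0.03 (adjusted p = 5.10e-04). The enzymes that add sulfate to tyrosines of secreted proteins differed in direction, since TPST2 rose by 1.09 (SE 0.07) and TPST1 fell by 0.64 (SE 0.08) on the log2 scale. TPST1 was below the background level in all high density cultures, and against that level the difference was 1.39-fold. CPE, the carboxypeptidase that trims peptides before amidation, had means of 6.86 ± 0.03 and 6.29 ± 0.24 with a log2 fold change of -0.57 (SE 0.12, adjusted p = 0.0165). CPE missed the FC threshold and was called lower without high density replicate 2 (-0.69), without high density replicate 3 (-0.59), after median centring (-0.62) or with array weights (-0.60). Of the list, 3 were called lower when high density replicate 2 was left out and 2 when replicate 3 was.

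**Figure D2:**
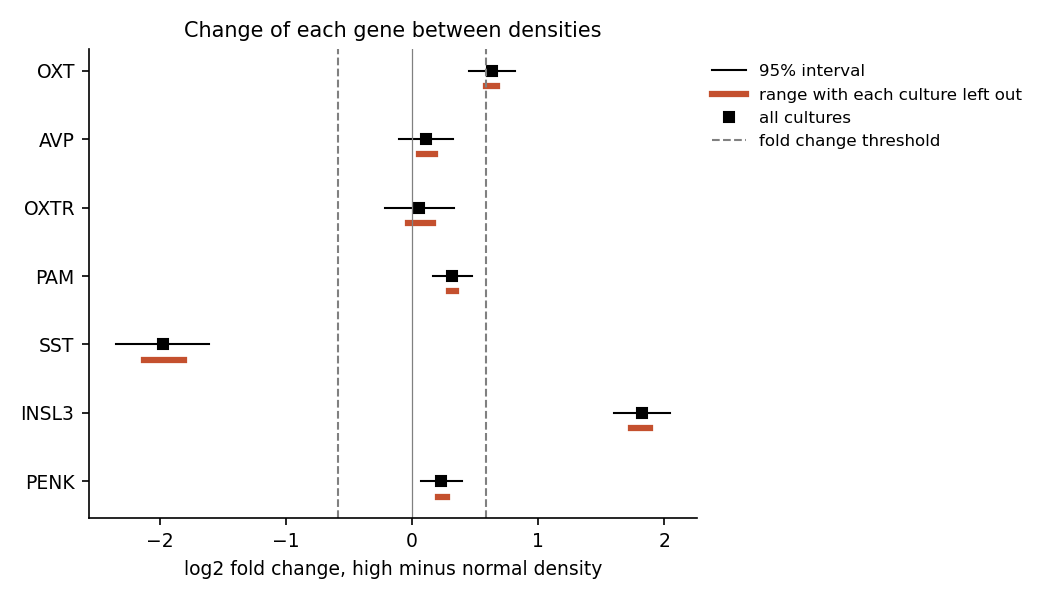
Log2 fold change at high against normal density (horizontal axis) of the 7 members. Squares and thin lines give the estimate with its 95% interval, thick lines the range when each culture was left out in turn, and dashed lines the FC threshold of 0.585 in both directions. INSL3 and SST were far outside these lines, and OXT at 0.63 lay next to one.

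SST encodes somatostatin, an inhibitory peptide that restrains the release of other hormones. At normal density its log2 signals were 6.22, 6.47 and 6.86, and at high density they were 4.54, 4.44 and 4.64. Every normal density culture was at least 1.58 above the highest high density culture. Of the high density cultures, 1 exceeded the background level, and only by a narrow margin. The means were 6.52 ± 0.32 and 4.54 ± 0.10 (SD, n = 3). SST fell by 1.98 on the log2 scale (SE 0.16, adjusted p = 2.19e-04), which is 3.94-fold, and against the background level the difference was 3.72-fold. The SD at normal density was larger than that of 97.0% of all transcript clusters. The fall was larger than the change of 99.6% of all transcript clusters.

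Of the 5 further transcript clusters of the somatostatin list, 3 were called higher, and all 3 are receptor genes. SSTR1 had log2 signals of 4.89, 5.09 and 5.24 at normal density and 7.01, 6.88 and 7.01 at high density. All its cultures were above the background level, and it rose by 1.89 (SE 0.10, adjusted p = 4.64e-05). SSTR3 was below the background level in the normal density cultures with 4.27, 4.15 and 4.53, and above it in the high density cultures with 5.33, 4.85 and 4.99. It rose by 0.74 (SE 0.15, adjusted p = 0.0125), or 1.35-fold against the background level, but the call was lost without normal density replicate 1, where the log2 fold change was 0.72 with an adjusted p of 0.0503. SSTR2 was below the background level in all cultures, with 3.36, 3.27 and 3.45 at normal and 4.14, 3.87 and 3.93 at high density. Its log2 fold change of 0.62 (SE 0.09, adjusted p = 0.00401) met the criteria, but was 0.54 without high density replicate 1, 0.58 without normal density replicate 2 and 0.58 after median centring, and then was not called. SSTR5 and CORT, the gene of the related peptide cortistatin, were below that level, with log2 fold changes of -0.00 and 0.11.

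**Figure D3:**
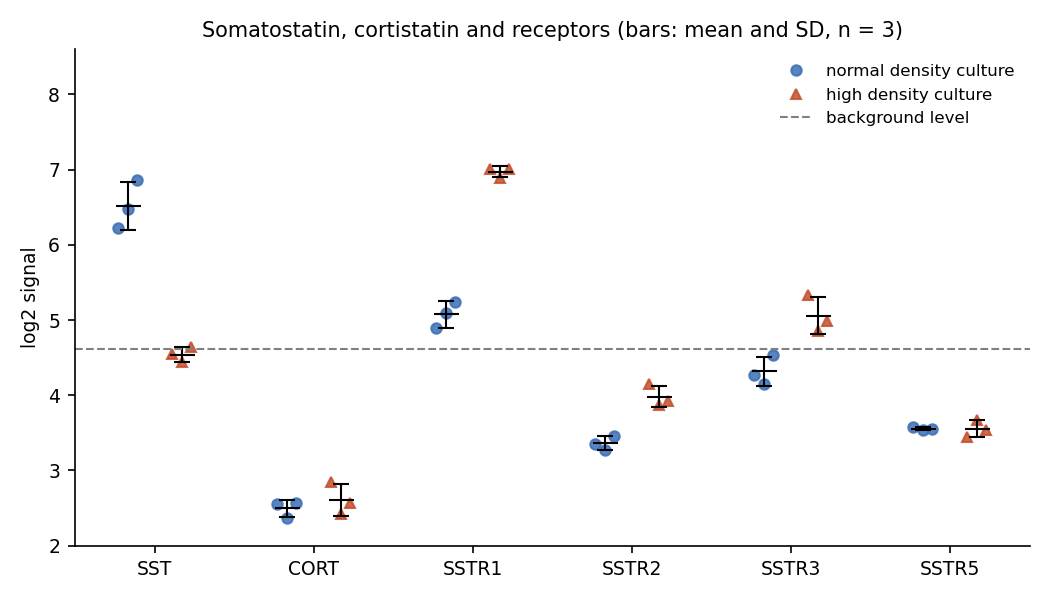
Log2 signals (vertical axis) of SST and the further transcript clusters of the somatostatin list in the 3 normal density cultures (blue circles) and the 3 high density cultures (red-orange triangles), with bars for the mean and SD and a dashed line for the background level of 4.62. SST fell from a mean of 6.52 to 4.54, and SSTR1 rose from 5.08 to 6.97.

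INSL3 encodes insulin-like peptide 3, a hormone of the relaxin family. Its log2 signals were 7.15, 7.27 and 7.18 at normal density and 9.19, 8.98 and 8.89 at high density. All cultures were well above the background level, and the lowest high density culture was 1.62 above the highest normal density culture. The means were 7.20 ± 0.06 and 9.02 ± 0.15 (SD, n = 3). INSL3 rose by 1.82 (SE 0.09, 95% interval 1.60 to 2.04, adjusted p = 3.88e-05), which is an FC of 3.53. It exceeded 99.5% of all transcript clusters in the size of the change. JAK3, which neighbours INSL3 in the RefSeq annotation, was not called, with means of 7.73 and 7.55 and an adjusted p of 0.423.

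RXFP2 encodes the receptor of insulin-like peptide 3. It was below the background level in both groups, with means of 2.44 and 2.44. RXFP1, the relaxin receptor, was below it as well at 1.58 and 1.63. All 7 further transcript clusters of the relaxin and insulin-like peptide list were at or below the background level in both groups, and both limma and the methods' t-test called 0. Without high density replicate 2, and with array weights, limma called 2 higher. Of the 7, 2 had an unadjusted and an adjusted p below 0.05, namely the receptor RXFP3 with a log2 fold change of 0.57 (adjusted p = 0.0333) and its ligand RLN3 with 0.50 (adjusted p = 0.0472).

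PENK encodes proenkephalin, the precursor of the enkephalins, which act on opioid receptors. Its log2 signals were 4.50, 4.64 and 4.52 at normal density and 4.80, 4.77 and 4.78 at high density. The groups did not overlap, but all values were close to the background level, which 1 of 3 normal density and 3 of 3 high density cultures exceeded. The log2 fold change was 0.23 (SE 0.07, 95% interval 0.07 to 0.39, adjusted p = 0.0576). The opioid receptor genes OPRM1, OPRD1 and OPRK1 were below the background level, with means of 2.90, 4.25 and 3.10 at normal density and log2 fold changes of 0.00, 0.11 and 0.20. MME, neprilysin, which degrades enkephalins, was below it too at 1.97 and 2.06. Of the 11 further transcript clusters of the opioid list, limma and the methods' t-test called 0, and 3 had an unadjusted p-value below 0.05.

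Receptors of these peptides signal through G proteins, kinases and arrestins. The list of receptor coupling and oxytocin targets held only genes of G proteins, phospholipases, inositol trisphosphate receptors, arrestins and receptor kinases. Responses to oxytocin were thus not surveyed. Of its 17 transcript clusters, 2 were called higher. ARRB1, the beta-arrestin that binds activated receptors, rose from 4.78 ± 0.04 to 6.48 ± 0.07. The receptor kinase GRK5 rose from 5.12 ± 0.03 to 5.89 ± 0.14. PLCB1, the phospholipase downstream of the oxytocin receptor, had means of 9.62 ± 0.03 and 9.10 ± 0.01. With a log2 fold change of -0.52 it stayed short of the FC threshold (adjusted p = 0.00144). ARRB2, GRK6 and PLCB4 were also lower without being called, with log2 fold changes of -0.39, -0.31 and -0.41. These, PLCB1, ARRB1 and GRK5 were the 6 of 17 transcript clusters with an adjusted p below 0.05.

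Transcription factors known at the promoters of these peptide genes were covered by 19 transcript clusters, of which 2 were called higher. The orphan nuclear receptor NR4A1 had log2 signals of 5.97, 6.08 and 5.85 at normal density and 7.94, 7.62 and 7.60 at high density. The groups were widely apart, and NR4A1 rose by 1.75 (SE 0.11, adjusted p = 9.73e-05). The stress-inducible factor ATF3 rose by 0.72 (SE 0.09, adjusted p = 0.00209). NR5A1, steroidogenic factor 1, was not called, with means of 7.23 ± 0.18 and 6.95 ± 0.13 (adjusted p = 0.130). The estrogen receptor ESR2 had a log2 fold change of -0.31, the progesterone receptor PGR 0.14, the COUP factors NR2F1 and NR2F2 0.30 and -0.07, and the cAMP-responsive factor CREB1 -0.14, and none of these was called.

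**Figure D4:**
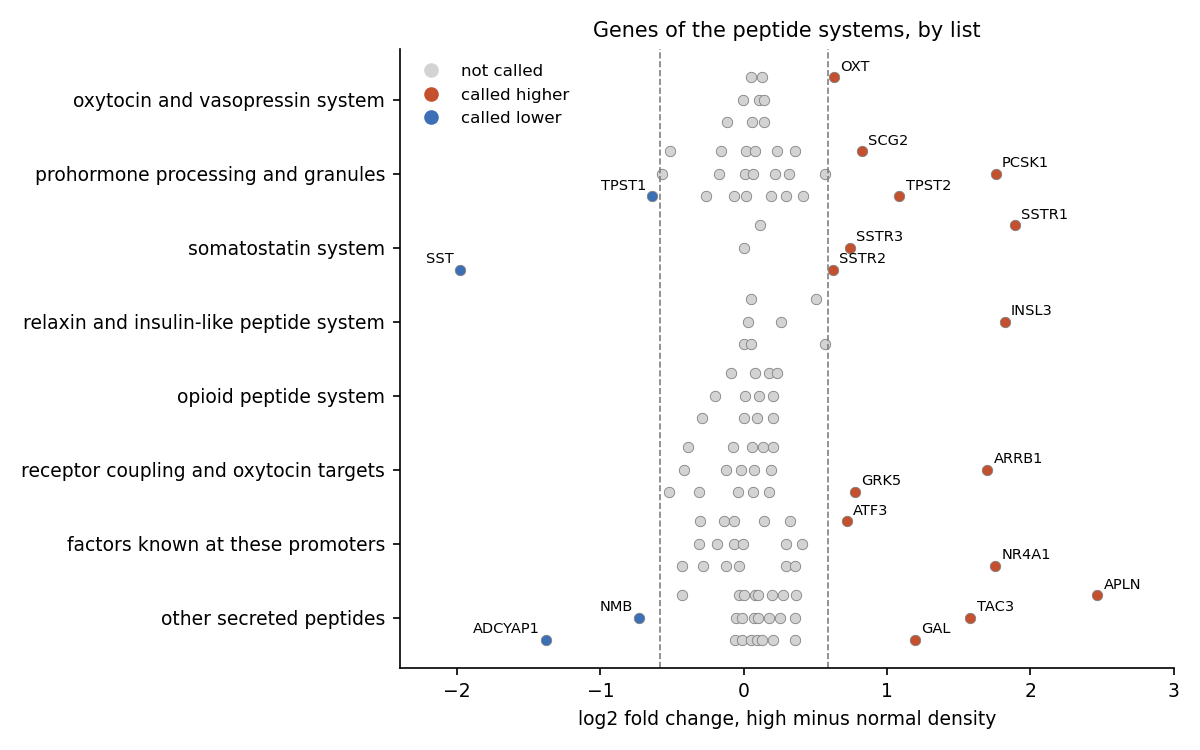
Log2 fold change at high against normal density (horizontal axis) of the transcript clusters of 8 gene lists, members included. Each point is 1 transcript cluster, coloured by whether it was called, the dashed lines are the FC threshold of 0.585 in both directions, and the vertical offset within a list has no meaning. Called points carry gene names, with SST at -1.98 alone on the left of the somatostatin list.

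Over all lists without the members, 110 of 113 genes were found by symbol with 114 transcript clusters. Of these, 13 (11.4%) were called higher and 3 (2.63%) lower, against 3.97% and 3.51% of all transcript clusters. At or below the background level in both groups were 54. The median log2 fold change of the 114 was 0.07. These lists were written with earlier results of the same arrays known, so the counts describe them and give no independent evidence of a direction.

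The transcript clusters closest in pattern to each called member were found by the root mean square distance of the log2 signals, each centred on its own mean, over the 6 cultures. For INSL3 these were NR4A1 with a distance of 0.066, PCSK1 with 0.071 and TGFB1 with 0.082. NR4A1 and PCSK1 are also on the gene lists, and their values are given above. For OXT they were SUOX, TINAGL1 and GRAMD1B, with distances of 0.014, 0.021 and 0.028. Like OXT, each of the 3 had its highest signals in high density replicates 1 and 3, a likeness that selection by this distance brings with it. For SST they were H4, KCNAB1 and NDC80, with distances of 0.132, 0.137 and 0.158. The points share the arrays and their normalization, and the order is a description over 6 cultures.

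**Figure D5:**
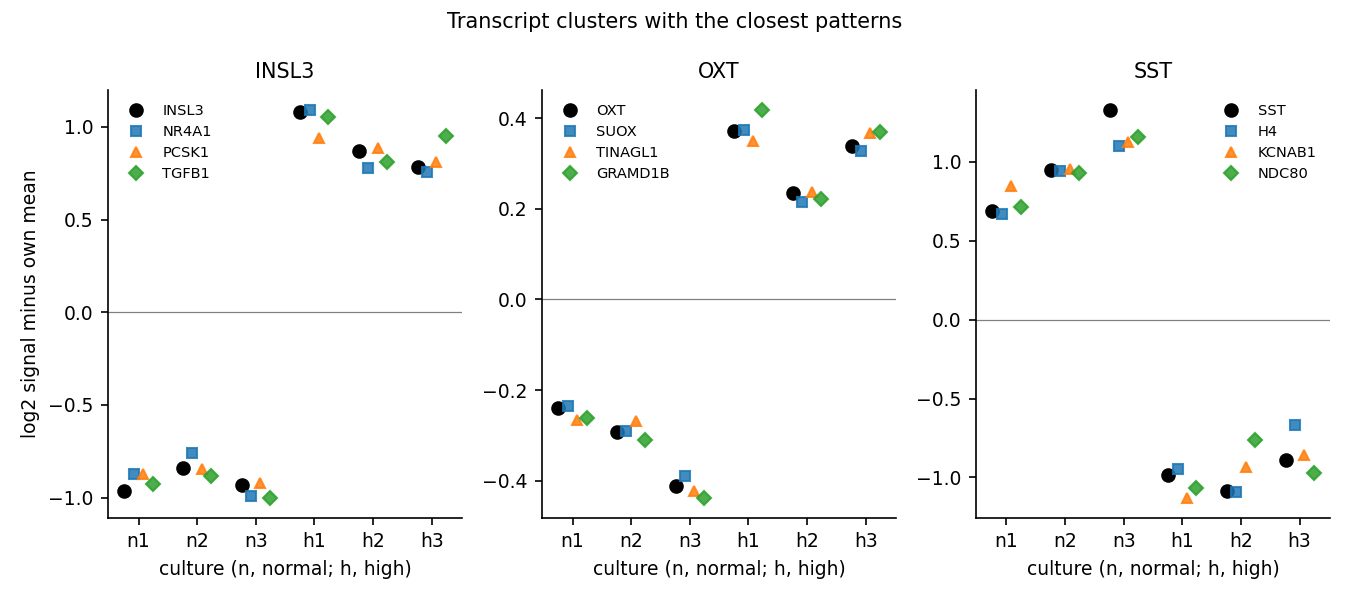
Log2 signal minus the mean over all cultures (vertical axis) for INSL3, OXT and SST (black circles) and the 3 transcript clusters closest to each in pattern (coloured symbols), by culture (n1 to n3 normal density, h1 to h3 high density). The vertical scales differ between panels. Each set lies on opposite sides of 0 in the normal and the high density cultures.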

How the data were processed

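Total RNA of 6 GC cultures was measured on Bovine Gene 1.0 ST arrays. The authors processed the scans in Affymetrix Expression Console with RMA, and the deposited table holds log2 signals per transcript cluster. It was used as deposited, with 0 columns of other samples. Array medians were 4.34 to 4.43. The array's genome build is not given in the sources used here. The main test was limma (version 3.58.1, R 4.3.3; lmFit and eBayes without covariates), p-values were adjusted by Benjamini-Hochberg over the 26773 transcript clusters, and thresholds were those of the study's methods. 1 item of the lists is not reported here and was left out of their counts. The script was tested on simulated data. Members and gene lists were chosen with earlier results of these data known. Named genes were all members, every called gene of the pathway lists, a set of receptors, enzymes, factors and cell type markers, and the 3 closest patterns of each called member. AVPR1B, AVPR2, CORT, RXFP3, RLN3, PLCB1, PLCB4, ARRB2, GRK6 and the neighbouring genes were named after their values were seen. Per the methods the RNA came from 6 cell preparations, each a pool of many ovaries. The p-values thus measure the spread between cultures of pooled cells, not between cows. It is not stated whether normal and high density cultures shared a pool. An exact permutation test of 3 against 3 cultures cannot give a p under 0.1, and the number of arrays limits the precision. The alternatives were other variance models, scalings, filters, thresholds, a replicate block and leaving out each culture. Python 3.11.15 and matplotlib 3.10.9 made the figures.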

Additional observations from a re-analysis of the deposited data

How the results depend on the processing

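INSL3 was called higher under every alternative run, with log2 fold changes of 1.74 to 1.89. SST ranged from -2.13 to -1.81 and missed the threshold under the Welch version of the methods' t-test (-1.98, adjusted p = 0.0679), which called 0 members lower. OXT was not called by limma's treat (0.63, adjusted p = 1), which called 1 member higher. When each culture was left out, OXT ranged from 0.58 to 0.67, and 1 to 2 members were called higher. PAM was called at any fold change (0.32). OXTR turned to -0.0027 after a second quantile normalization, and ranged from -0.0353 to 0.168 when each culture was left out. Of the listed genes without the members, the Welch version called 7 higher and 0 lower, treat 8 and 0, and any fold change 22 and 13, against 13 and 3. With each culture left out, 3 to 5 were called lower, with 5 without high density replicate 2. For all transcript clusters these counts were 525 and 313, 369 and 160, and 2314 and 2792, against 1064 and 941. SSTR3 also lost its call with the methods' t-test (adjusted p = 0.0824). Under both the Welch version and treat, SSTR2, SSTR3, SCG2, GRK5, ATF3, TPST1, ADCYAP1 and NMB lost their calls. TAC3 lost its call under the Welch version only. Signs turned for OPRM1 (-0.0407 after median centring, -0.0439 after the second quantile normalization, and -0.0908 to 0.0699 when each culture was left out) and, in the same order, RXFP2 (-0.0425, -0.0290, and -0.0945 to 0.0728). With cultures left out, they also turned for PGR (-0.0225 to 0.223), RXFP1 (-0.0082 to 0.0878) and SSTR5 (-0.0623 to 0.0510). The cause was not tested.

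The sample labels do not say whether the replicate numbers pair the cultures. Same-numbered cultures had correlations of their deviations from the group means of 0.046, -0.046 and -0.041. Differently numbered cultures had -0.071 to 0.09. Values this small show no pairing but cannot exclude shared pools, since differences between pools may be small beside those between cultures. With the replicate block, 2 members and 13 further listed transcript clusters were called higher and 1 and 3 lower, and no member changed its call. Signals at the background level limit what AVP, OXTR and PENK can show.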

Other observations

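Other secreted peptides were covered by 27 transcript clusters of 26 genes, of which 3 were called higher, 2 were called lower and 19 were at or below the background level in both groups. APLN, which encodes the vascular peptide apelin, had log2 signals of 3.90, 3.99 and 4.17 at normal density and 6.61, 6.33 and 6.52 at high density. It rose from below the background level by 2.47 (SE 0.11), and against that level the difference was 3.65-fold. TAC3, the gene of neurokinin B, rose by 1.58 (SE 0.10), but all normal density cultures were below the background level, and against that level the difference was 1.17-fold. GAL, the gene of galanin, rose by 1.20 (SE 0.09) but reached a mean of only 4.62 at high density, which is the background level itself.

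ADCYAP1, which encodes the peptide PACAP, had log2 signals of 6.78, 7.17 and 6.83 at normal density and 5.51, 5.94 and 5.19 at high density. The groups did not overlap, and ADCYAP1 fell by 1.38 on the log2 scale (SE 0.19, adjusted p = 0.00285). NMB, the gene of neuromedin B, fell by 0.73 (SE 0.12) to a mean of 5.27 ± 0.15 (SD, n = 3) at high density.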
